A study of Mus musculus with 8 samples.

Results

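The 9 genes described here, Ugt8a, Synpr, Trim12a, Trim12c, Gfra1, Aqp11, Extl1, Dzip1 and Xlr4b, were chosen from earlier results of these data because their RNA separated tumours of different deletion genotypes. They are 9 of the 13681 gene symbols measured, and all 9 passed the filter on low values. RNA was sequenced from 8 thymic lymphomas, tumours of the thymus, of C57BL/6 mice that were 10 weeks old. All 8 carried the p53-/- genotype and received an adenovirus injected into the tumour, and tissue was taken after 48 hours. The control group (n = 2) was ΔNfl/fl;p53-/- and received Ad-mCherry, a virus without Cre recombinase. The ΔNp63 group (n = 3) was ΔNp63Δ/Δ;p53-/- and the ΔNp73 group (n = 3) was ΔNp73Δ/Δ;p53-/-, and both received Ad-CRE-mCherry, a virus that carries Cre. The control label does not say which gene is floxed. Control and deletion groups differ in both virus and genotype, and these effects cannot be told apart.

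Trp63 and Trp73 encode p63 and p73, transcription factors related to p53, and the ΔN forms lack the N-terminal activation domain. The 9 genes do not form 1 pathway. Ugt8a and Extl1 encode enzymes that build sugar-bearing lipids and heparan sulfate, Synpr and Aqp11 encode membrane proteins, Gfra1 encodes part of a growth factor receptor, and Trim12a and Trim12c belong to a family of antiviral proteins. Dzip1 encodes a protein of the base of the cilium, and Xlr4b belongs to an X-linked family first described in lymphocytes. Several are best known from nervous tissue.

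Levels were FPKM, fragments per kilobase of transcript scaled to library size, which the authors quantile-normalised between libraries. A gene was called on-off where it was under 1 FPKM in every library of one deletion group and at 2 FPKM or more in every library of the other. By that definition 3 of the 9 genes were on-off, namely Ugt8a, Trim12a and Synpr, and 6 were not. Over all symbols 11 were on-off (0.0804%), with 0.0365% on in the ΔNp63 group and 0.0439% on in the ΔNp73 group. In all 9 genes, the 3 ΔNp63 libraries lay on one side of the other 5, which held for 4.88% of the 12921 genes tested. They were above the others in 2 genes, Ugt8a and Xlr4b (2.24% of genes tested), and below them in 7 (2.64%). Since that separation is what the genes were chosen for, nothing is read from it, and no p-value is given for a member in any comparison, as all comparisons share these libraries.

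All 9 markers of thymocytes, the cells from which these tumours arise, were measured, with summed levels of 4185 to 4931 FPKM in control, 1820 to 3369 in the ΔNp63 group and 1727 to 2871 in the ΔNp73 group. The sums of 6 macrophage markers were 222 to 256, 233 to 576 and 561 to 778 FPKM in the same order, and those of 5 fibroblast markers 66.1 to 66.4, 80.0 to 182 and 204 to 284. In pieces of tumour, fewer cells of a type and less RNA per cell cannot be told apart. Trp63, a targeted gene, had 4 transcript rows. In the highest, the ΔNp63 libraries (1.05 to 9.91 FPKM) overlapped with control (3.38 to 5.21) and with ΔNp73 (6.38 to 13.8). In the next 2 rows they lay below the ΔNp73 libraries, at 0.777 to 5.91 against 9.03 to 11.5 FPKM and at 0.0394 to 3.98 against 4.49 to 6.81, and overlapped with control. The rows share exons, and whether the ΔN form was lost is not settled by them. Trp53 RNA, despite the p53-/- label, was at 67.6 and 81.0 FPKM in control, 16.1 to 46.3 in the ΔNp63 group and 10.96 to 75.9 in the ΔNp73 group in its higher row, and which part of the gene the allele lacks is not given in the labels. Trp73 was not analysed here. Replicate 2 of the ΔNp63 group stood apart, with a median correlation of 0.847 with the other libraries, against 0.915 to 0.956 for the others. Y-linked RNA was present in control replicate 1 and ΔNp73 replicate 1, at 55.3 and 57.1 FPKM summed over 4 genes, and at most at 0.0692 FPKM elsewhere.

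Ugt8a and Trim12a were the sharpest examples in the 2 directions, and Trim12c is the close relative of Trim12a, so the promoter windows of these 3 genes are shown. Each is the 250 bases before the RefSeq start on GRCm38.p6, read 5′ to 3′ on the minus strand, with capitals marking CCAAT boxes (CCAAT, or ATTGG on the other strand) and GC boxes (GGGCGG, or CCGCCC). The windows are chr3:125938653-125938902 for Ugt8a, chr7:104315496-104315745 for Trim12a and chr7:104353350-104353599 for Trim12c.
Ugt8a: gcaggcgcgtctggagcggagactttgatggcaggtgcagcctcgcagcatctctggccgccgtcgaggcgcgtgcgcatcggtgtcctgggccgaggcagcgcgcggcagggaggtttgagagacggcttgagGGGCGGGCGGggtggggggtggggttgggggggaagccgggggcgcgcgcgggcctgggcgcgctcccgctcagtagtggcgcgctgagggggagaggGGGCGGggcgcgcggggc
Trim12a: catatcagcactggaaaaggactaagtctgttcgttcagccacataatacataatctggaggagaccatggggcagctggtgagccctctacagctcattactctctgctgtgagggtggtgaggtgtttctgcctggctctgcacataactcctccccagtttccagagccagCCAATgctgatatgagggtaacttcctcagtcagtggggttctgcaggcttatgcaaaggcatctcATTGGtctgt
Trim12c: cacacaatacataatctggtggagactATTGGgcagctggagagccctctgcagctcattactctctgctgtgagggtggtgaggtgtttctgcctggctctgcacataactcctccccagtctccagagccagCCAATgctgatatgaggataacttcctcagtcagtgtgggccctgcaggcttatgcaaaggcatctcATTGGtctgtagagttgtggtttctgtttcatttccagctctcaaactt
The Ugt8a window had 76.8% G and C and no CCAAT box, while the Trim12a and Trim12c windows had 50.8% and 50.4% and no GC box. The Trim12a and Trim12c windows were identical at 200 of 210 aligned bases (95.2%), and both held CCAAT boxes in either orientation. Synpr and Dzip1 have several windows in the table, some of them far from the start of the transcript measured here, so the window nearest that start was counted for each of the 9 genes. Of these 9, 6 held CCAAT on either strand, among them the near-identical Trim12a and Trim12c windows. Over all 12 windows of the members CCAAT was in 7, against 33.8% of 32851 windows of the same length. The share over all windows was not taken from nearest windows alone, so it is not a like comparison with the 9. GGGCGG on either strand was in 2 of the 9, those of Ugt8a and Dzip1, and in 4 of the 12, against 32.7% of all windows. TATAAA was in 0, against 12.4%. The p53-family half-site was in 1 window, that of Xlr4b, against 7.13% of all. These matches describe letters and not binding.

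Ugt8a encodes the enzyme that joins galactose to ceramide to make galactosylceramide, a main lipid of myelin. Its RNA was at 5.25, 7.18 and 5.27 FPKM in the ΔNp63 libraries. In control it was at 0.0638 and 0.0283 FPKM, and in the ΔNp73 group at 0.0398 and 0.0410 FPKM in replicates 1 and 3 and listed at 0 in replicate 2. All 3 ΔNp63 libraries were therefore high and the other 5 near 0, with no overlap. The lowest ΔNp63 library was 127.9 times the highest ΔNp73 library, a ratio that rests on a value near 0 FPKM and is not exact. The group means were 5.90 ± 1.11 FPKM (SD, n = 3) in the ΔNp63 group and 0.0461 ± 0.0251 (SD, n = 2) in control. On the scale of log2(FPKM + 1), which understates the change of low genes, the difference between ΔNp63 and control was 2.71 (SE 0.17) and that between ΔNp73 and control was -0.03 (SE 0.17). The ΔNp63 mean was above 45.5% of all symbols in that group, so Ugt8a was a gene of middling level there. In control its mean was above 0.541% of symbols.

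Of 8 markers of myelinating glia 3 were measured, namely Mbp, Cnp and S100b. Their summed levels were 73.1 to 78.8 FPKM in control, 65.3 to 90.8 in the ΔNp63 group and 52.1 to 66.1 in the ΔNp73 group, and most of each sum was Cnp and Mbp. The ΔNp63 range of that sum spanned the control range. The other listed markers were not measured, and the part of glia in the Ugt8a values was not tested. S100b was at 0.404 and 1.61 FPKM in control, at 0.0747 to 0.339 in the ΔNp63 group and at 0.0586 to 0.0776 in the ΔNp73 group. Of 14 other tested genes of galactolipid synthesis and turnover, 0 passed the test in any comparison, where 0.0542% to 0.0929% of all genes tested did, and their median differences were 0.11 for ΔNp73 against ΔNp63 and 0.03 for ΔNp63 against control. Ugcg, which makes glucosylceramide from the same ceramide, was at 44.0 and 45.7 FPKM in control, 48.2 to 56.4 in the ΔNp63 group and 49.6 to 54.9 in the ΔNp73 group. Lass4, a ceramide synthase named after its values were seen, was at 1.35 and 1.38 FPKM in control, at 3.92, 3.39 and 4.39 in the ΔNp63 group and at 2.54, 1.65 and 1.39 in the ΔNp73 group. It was the 1 gene of the 64 tested in all pathway and family lists (1.56%) whose ΔNp63 libraries lay beyond the 5 others, against 4.88% of genes tested, and it did not pass the test (difference from control 1.05, SE 0.20, adjusted p = 0.164, limma) unless ΔNp63 replicate 2 was left out. Psap, which encodes the precursor of proteins that help break such lipids down, was at 313 and 369 FPKM in control, and at 458, 210 and 555 in the ΔNp63 libraries.

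**Figure D1:**
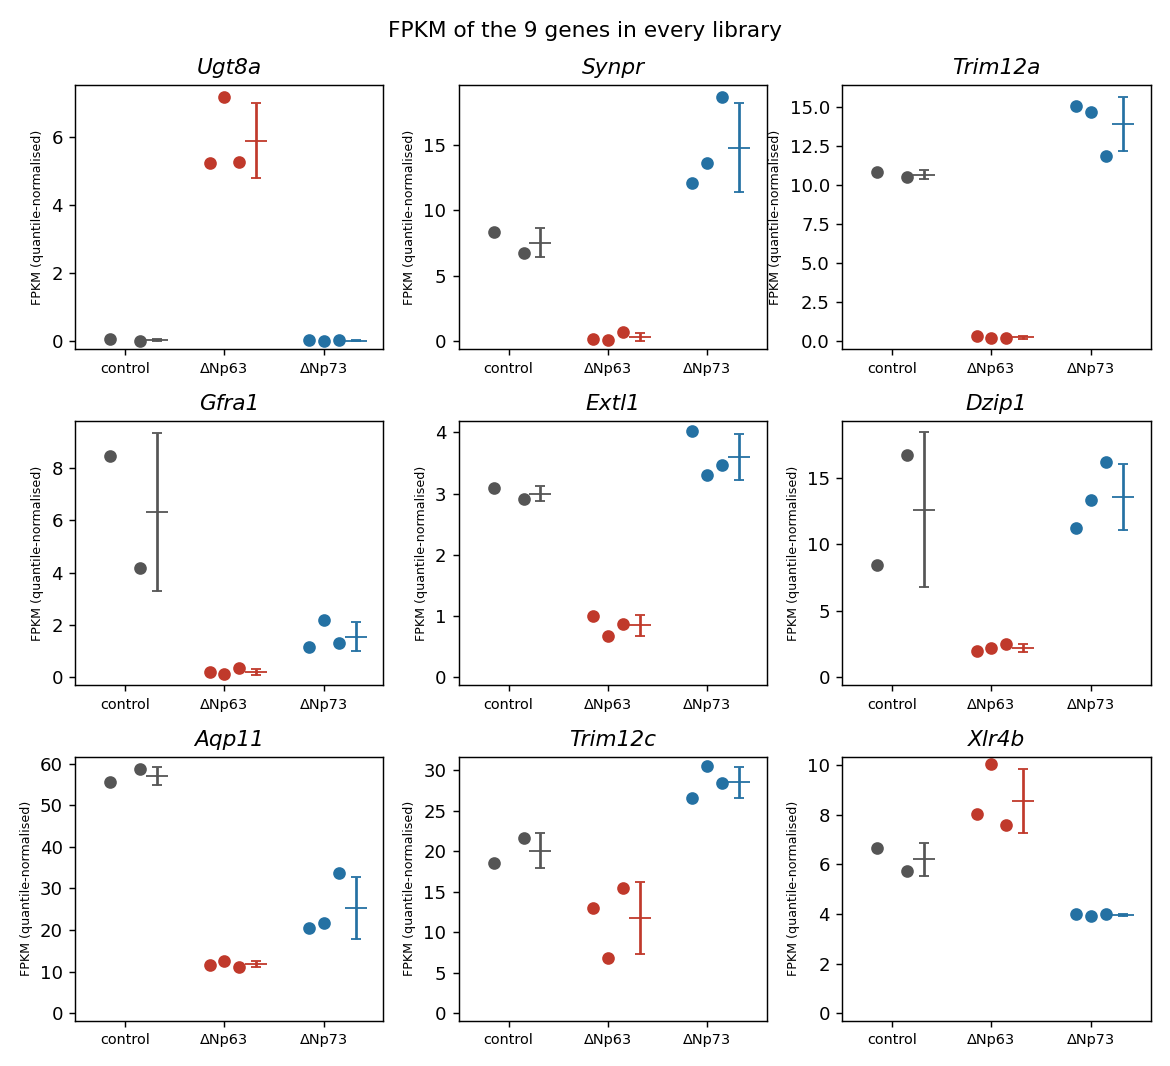
FPKM of each of the 9 genes in the 8 libraries, 1 panel a gene, each with its own linear axis from 0. Points are libraries, and the bars beside them show the group mean ± SD (n = 2 control, n = 3 for each deletion group). In every panel the 3 ΔNp63 libraries sit on one side of the other 5. They lie above them for Ugt8a and Xlr4b and below them for the other 7. The gap between the nearest libraries of the 2 sides differs from 82.2-fold for Ugt8a to 1.63-fold for Aqp11, 1.20-fold for Trim12c and 1.14-fold for Xlr4b. For Ugt8a the lower value is near 0 FPKM, so its fold is not exact.

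Synpr encodes synaptoporin, a protein of the membrane of synaptic vesicles. It was at 8.31 and 6.73 FPKM in control, at 0.182, 0.129 and 0.717 in the ΔNp63 group and at 12.1, 13.6 and 18.6 in the ΔNp73 group. The 3 groups did not overlap at any point, and their order was ΔNp63, control, ΔNp73. The means were 7.52 ± 1.12 (SD, n = 2), 0.343 ± 0.325 (SD, n = 3) and 14.8 ± 3.41 FPKM (SD, n = 3) for control, ΔNp63 and ΔNp73. ΔNp73 was 1.96 times control, a difference of 0.87 (SE 0.25) on the log2(FPKM + 1) scale, while ΔNp63 lay 2.69 (SE 0.25) below control on that scale. In the ΔNp73 group the Synpr mean was above 71.5% of symbols. The summed levels of markers of neurons overlapped between the groups: of 6 listed, 4 were measured, with sums of 4.97 to 5.26 FPKM in control, 4.41 to 6.98 in the ΔNp63 group and 3.96 to 5.71 in the ΔNp73 group. Relatives of Synpr were measured too, and 0 of 3 tested passed the test in any comparison. Syngr2, a synaptogyrin found outside the nervous system, was at 34.7 and 33.4 FPKM in control, 37.7 to 58.1 in the ΔNp63 group and 56.5 to 64.5 in the ΔNp73 group.

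Aqp11 encodes a water channel of inner cell membranes, whose loss in mice gives cystic kidneys. It had the highest control level of the 9 genes, at 55.5 and 58.6 FPKM in control, at 11.5, 12.5 and 11.1 in the ΔNp63 group and at 20.4, 21.6 and 33.8 in the ΔNp73 group. It was thus never off. Control was highest, ΔNp63 lowest and ΔNp73 between, with no overlap, and the control mean was 4.87 times the ΔNp63 mean and 2.26 times the ΔNp73 mean. The differences were -2.19 (SE 0.22) for ΔNp63 and -1.18 (SE 0.22) for ΔNp73 against control on the log2(FPKM + 1) scale. Of 4 other aquaporins tested, 0 passed the test in any comparison. Aqp1, a water channel of red cells and small vessels, was at 15.1 and 18.0 FPKM in control, 9.99 to 40.7 in the ΔNp63 group and 32.5 to 58.1 in the ΔNp73 group. Aqp3, which also carries glycerol, was at 3.78 and 3.28 FPKM, 2.99 to 6.88 and 7.06 to 10.1 in the same order. Unlike Aqp11, neither had its highest libraries in control.

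Gfra1 encodes the receptor part, anchored to the cell surface, that binds the growth factor GDNF and presents it to the kinase Ret. It was at 8.47 and 4.20 FPKM in control, at 0.192, 0.109 and 0.341 in the ΔNp63 group and at 1.17, 2.19 and 1.31 in the ΔNp73 group. Both deletion groups were below control without overlap, the ΔNp63 group by more. The means were 6.33 ± 3.02 (SD, n = 2), 0.214 ± 0.118 (SD, n = 3) and 1.56 ± 0.555 FPKM (SD, n = 3), so the ΔNp73 mean was 0.246 of the control mean. The differences from control were -2.54 (SE 0.29) and -1.48 (SE 0.29) on the log2(FPKM + 1) scale. Gfra1 was under 1 FPKM in the ΔNp63 group, but ΔNp73 replicates 1 and 3 fell short of 2 FPKM, which is why it did not meet the on-off definition. Ret and Gdnf were not analysed here. Gfra2, the sister receptor for neurturin, was at 2.83 and 2.65 FPKM in control, 1.21 to 2.71 in the ΔNp63 group and 2.12 to 3.67 in the ΔNp73 group. Of the 3 other tested genes on the list made for Gfra1, namely Gfra2, Nrtn and Ncam1, 0 passed the test in any comparison.

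Trim12a belongs to the Trim5, Trim30 and Trim34 gene cluster on chromosome 7, whose relative TRIM5 blocks retroviruses in primates. It was at 10.9 and 10.5 FPKM in control, at 0.346, 0.1998 and 0.226 in the ΔNp63 group and at 15.1, 14.7 and 11.9 in the ΔNp73 group. The 3 ΔNp63 libraries were low, control was high, and ΔNp73 was a little higher, with no overlap between any of the groups. The lowest ΔNp73 library was 34.3 times the highest ΔNp63 library, a ratio that rests on a low value of 0.346 FPKM. The group means were 10.7 ± 0.264 (SD, n = 2), 0.257 ± 0.0780 (SD, n = 3) and 13.9 ± 1.74 FPKM (SD, n = 3). The differences on the log2(FPKM + 1) scale were -3.22 (SE 0.16) for ΔNp63 against control and 0.34 (SE 0.16) for ΔNp73 against control. From above 63.4% of symbols in control, the Trim12a mean came to be above 0.848% in the ΔNp63 group.

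Trim12c, known in mice to promote interferon signalling, had 2 transcript rows in the table, the longer of which had the higher mean. The longer transcript was at 18.5 and 21.6 FPKM in control, at 13.0, 6.80 and 15.4 in the ΔNp63 group and at 26.6, 30.5 and 28.4 in the ΔNp73 group. Its libraries were ordered as those of Trim12a were, ΔNp63 below control and control below ΔNp73, but the ΔNp63 mean of 11.7 ± 4.45 (SD, n = 3) was far from 0. The shorter transcript was at 9.14 and 7.57 FPKM in control, at 22.5, 11.01 and 24.9 in the ΔNp63 group and at 8.02, 9.94 and 11.5 in the ΔNp73 group. It went the other way against control: all 3 ΔNp63 libraries were above both controls, while the deletion groups overlapped. The shorter transcript made up 33.0% and 26.0% of the 2 rows' sum in control, 63.4%, 61.8% and 61.7% in the ΔNp63 group and 23.2%, 24.6% and 28.9% in the ΔNp73 group. That share varied by less than 2 percentage points among the ΔNp63 libraries, replicate 2 included. The sum of both rows was at 27.7 and 29.1 FPKM in control, 35.5, 17.8 and 40.3 in the ΔNp63 group and 34.6, 40.4 and 39.9 in the ΔNp73 group, and the deletion groups overlapped in it. The ΔNp63 difference from control for Trim12c was -0.79 (SE 0.30) from the longer transcript and 0.05 from the sum, so its direction rests on the choice of row.

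The sequences of the 2 genes bear on how their reads were assigned. In the GENCODE transcripts of the same RefSeq entries, Trim12a has 1486 bases, the longer Trim12c transcript 3740 and the shorter 2484. Trim12a matched the longer at 83.7% of 1457 aligned bases and the shorter at 84.4% of 1450. Of its windows of 50 bases, 14.3% were found letter for letter in the longer Trim12c transcript and 16.1% in the shorter. With windows of 100 bases these shares were 1.37% and 2.67%. A fragment that lies within such a window matches both genes. The Trim12c transcripts differ from each other mainly at their ends, the longer having 138 more bases at the 5′ end and 1122 more at the 3′ end, and 98.6% of the shorter one's windows of 50 bases lie in the longer. The split of reads between these rows is an estimate by the authors' software, and its part in the opposed directions was not tested.

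**Figure D2:**
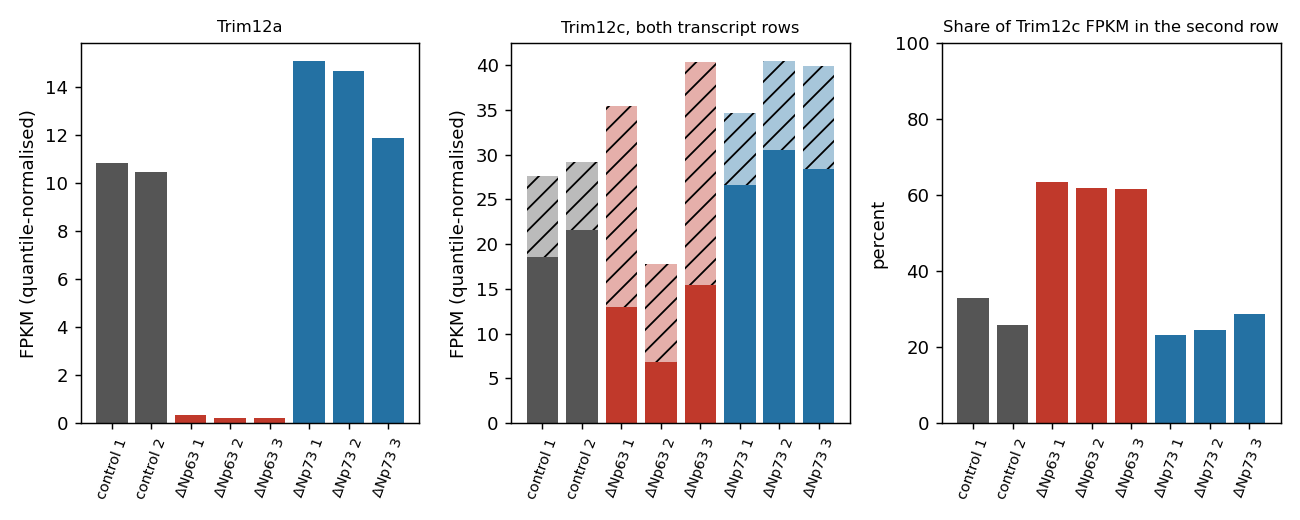
FPKM of Trim12a (left), FPKM of Trim12c with the longer transcript in solid and the shorter in hatched bars stacked on it (middle), and the share of their sum in the shorter transcript in percent (right), 1 bar for each of the 8 libraries. The ΔNp63 libraries are lowest for Trim12a and for the longer Trim12c transcript, and stand at 61.7% to 63.4% in the share, against 23.2% to 33.0% elsewhere.

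Of 6 other Trim genes tested, 0 passed the test in any comparison, with a median difference of 0.79 for ΔNp73 against ΔNp63. They were Trim21, Trim30a, Trim30d, Trim34a, Trim34b and Trim68. Trim30a, which restrains inflammatory signalling in mouse macrophages, was at 21.2 and 24.2 FPKM in control, at 48.9, 14.7 and 71.5 in the ΔNp63 group and at 73.4, 109.6 and 63.3 in the ΔNp73 group. Trim34a was at 7.44 and 6.62 FPKM in control, 2.25 to 8.82 in the ΔNp63 group and 10.5 to 16.4 in the ΔNp73 group. Trim30a was thus above control in ΔNp63 replicates 1 and 3, where Trim12a was near 0. The sums of the macrophage markers reached their highest values in the ΔNp73 group as well, at 561 to 778 FPKM against 233 to 576 in the ΔNp63 group. These ranges overlap, and the part of macrophages in the Trim values was not tested.

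Extl1 encodes a glycosyltransferase of the exostosin family, which makes the chains of heparan sulfate. It was at 3.08 and 2.91 FPKM in control, at 1.004, 0.667 and 0.868 in the ΔNp63 group and at 4.02, 3.30 and 3.47 in the ΔNp73 group. The ΔNp63 libraries were lowest without overlap and the ΔNp73 libraries highest, although ΔNp73 exceeded control by only 0.20 (SE 0.15) on the log2(FPKM + 1) scale. The ΔNp73 mean was 4.25 times and the control mean 3.54 times the ΔNp63 mean. Because ΔNp63 replicate 1 was at 1.004 FPKM, Extl1 lay just outside the on-off definition. Of 17 other tested genes of heparan sulfate synthesis, 0 passed the test in any comparison, and their median differences were 0.12 for ΔNp73 against ΔNp63 and 0.04 for ΔNp63 against control. Ext2, a subunit of the enzyme that lengthens the chain, was at 14.6 and 14.5 FPKM in control, 13.3 to 15.9 in the ΔNp63 group and 15.8 to 16.3 in the ΔNp73 group. The Ext2 values stayed within a narrow band in all 8 libraries, which did not hold for the whole list. Hs6st1, the gene of highest mean on it, was at 15.9 and 16.8 FPKM in control. In the ΔNp63 group Hs6st1 was at 9.71 to 20.6 FPKM, and in the ΔNp73 group at 14.9 to 16.9.

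Dzip1 encodes a zinc finger protein of the basal body that is needed for cilia and for Hedgehog signalling, as first shown in zebrafish. It was at 8.48 and 16.8 FPKM in control, at 1.97, 2.17 and 2.54 in the ΔNp63 group and at 11.2, 13.3 and 16.2 in the ΔNp73 group. Control and ΔNp73 overlapped, and the ΔNp63 libraries were below all 5 others. The ΔNp63 mean was 2.23 ± 0.287 FPKM (SD, n = 3), and the control and ΔNp73 means were 5.67 and 6.10 times as high. The control libraries lay on either side of all 3 ΔNp73 libraries. Of 13 other tested genes of the Hedgehog pathway and the basal body, 0 passed the test in any comparison. Ptch1, the Hedgehog receptor and a target of the pathway, was at 8.97 and 9.21 FPKM in control, 4.59 to 8.94 in the ΔNp63 group and 4.88 to 6.68 in the ΔNp73 group. Smo, the transducer next to it, was at 9.75 and 8.53, 5.52 to 7.45 and 4.85 to 6.55 FPKM in the same order.

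Xlr4b belongs to the Xlr family on the X chromosome and is imprinted in the mouse brain. It was at 6.65 and 5.73 FPKM in control, at 8.02, 10.03 and 7.59 in the ΔNp63 group and at 4.01, 3.91 and 3.98 in the ΔNp73 group. The order was ΔNp73, control, ΔNp63, with no overlap between any of the groups and with very little spread in the ΔNp73 group, at 3.96 ± 0.0493 (SD, n = 3). The ΔNp63 mean was 2.16 times the ΔNp73 mean and 1.38 times the control mean, and the control mean was 1.56 times the ΔNp73 mean. The difference between ΔNp63 and control was 0.40 (SE 0.16) on the log2(FPKM + 1) scale, while ΔNp73 was 0.53 (SE 0.16) below control. The near copies Xlr4a and Xlr4c were lowest in the ΔNp73 group too. Xlr4a was at 12.6 and 11.05 FPKM in control, 11.2 to 14.9 in the ΔNp63 group and 6.49 to 8.25 in the ΔNp73 group, and Xlr4c was at 8.64 and 7.83, 7.67 to 10.1 and 4.33 to 6.19 FPKM. In neither copy did the ΔNp63 libraries separate from control. In the GENCODE transcripts Xlr4b matched Xlr4a at 98.9% of 1161 aligned bases and Xlr4c at 99.2% of 1181. Of its windows of 50 bases, 51.8% and 60.8% were found letter for letter in them. With windows of 100 bases these shares were 28.9% and 46.9%. The values of each copy are therefore uncertain. The list made for this family held 4 other tested genes, Xlr, Xlr4a, Xlr4c and Sycp3, of which 0 passed the test in any comparison. All 4 were lower in ΔNp73 than in ΔNp63 on average, with a median difference of -0.56. Xlr4a and Xlr4c are the near copies named above, and Sycp3 was at no more than 1.48 FPKM in any library.

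**Figure D3:**
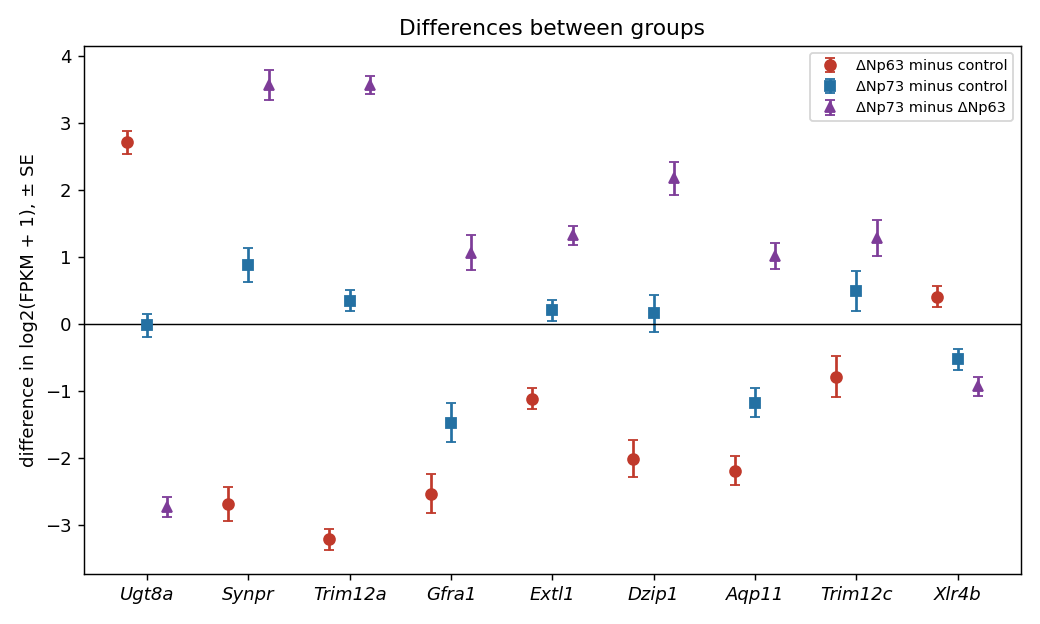
Differences between group means of log2(FPKM + 1) for the 9 genes in the 3 comparisons. Points are limma estimates and bars their standard errors, and the horizontal line marks 0. The ΔNp63 differences from control run from -3.22 for Trim12a to 2.71 for Ugt8a, while those of ΔNp73 run from -1.48 for Gfra1 to 0.87 for Synpr.

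In the ΔNp63 group all 9 genes lay outside the control values, against 30.3% of genes tested, 2 of them above control (12.6% of genes tested) and 7 below (17.7%). In the ΔNp73 group 7 did, against 63.4% of genes tested, 4 of them higher (Trim12a, Trim12c, Synpr and Extl1; 27.7% of genes tested) and 3 lower (Gfra1, Aqp11 and Xlr4b; 35.7%). Ugt8a and Dzip1 overlapped with control there. Between the deletion groups 18.9% of genes tested did not overlap, 10.3% with ΔNp73 higher and 8.58% with ΔNp73 lower.

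Between the deletion groups 7 genes passed an adjusted p of 0.05 (limma, Benjamini-Hochberg). That was 0.0542% of genes tested, 0.031% higher and 0.0232% lower in ΔNp73. For ΔNp63 against control the total was 12 (0.0929%, 0.031% higher and 0.0619% lower). For ΔNp73 against control it was 7 (0.0542%, 0.0464% higher and 0.00774% lower). The 9 genes had been picked from such results, so their share of these totals is not given. Without ΔNp63 replicate 2 the 3 totals were 19, 2882 and 4212. The total for ΔNp63 against control was 3 without either control and 7 without ΔNp63 replicate 1 or ΔNp73 replicate 2. The total for ΔNp73 against control was 0 without either control (limma; 1066 and 1254 genes at an unadjusted p under 0.05), 13 and 2 without ΔNp63 replicates 1 and 3, and 1, 1 and 2 without the ΔNp73 replicates.

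ΔNp63 replicate 2, the library that stood apart, was among the libraries the genes were chosen on, so its place on the ΔNp63 side is no check of it. It was the highest of its group for 3 of the 9 genes, the lowest for 5 and in between for 1. For Trim12c it was lowest at 6.80 FPKM, where the other ΔNp63 libraries were at 13.0 and 15.4. In Synpr the highest ΔNp63 library was replicate 3, at 0.717 FPKM against 0.182 and 0.129. Without the libraries with Y-linked RNA, control replicate 1 and ΔNp73 replicate 1, the ΔNp73 difference from control became 1.13 for Synpr and -0.94 for Gfra1 and went from 0.15 to -0.18 for Dzip1, whose controls were at 8.48 FPKM with and 16.8 without such RNA. Xlr4b, which lies on the X chromosome, was at 6.65 FPKM in the control with Y-linked RNA and 5.73 in the other control.

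The genes whose pattern over the 8 libraries was most like a member's were named by the highest Pearson correlation of log2(FPKM + 1) among the genes tested, as a description. For Trim12a they were Extl1 (0.991) and Synpr (0.974), for Extl1 Trim12a (0.991) and Synpr (0.974), and for Synpr Fam120a (0.989) and Extl1 (0.974). The pair most like Ugt8a was H2-T10, of the nonclassical MHC class I genes, at 0.984 and Dad1 at 0.981. For Trim12c the nearest were Ptprg (0.992) and Clic4 (0.984), and for Dzip1 Trim12a (0.958) was first. Mapre1 (0.970) was near Gfra1 in pattern, and Luc7l2 (0.968) near Aqp11. Those of Xlr4b were Exosc4 (0.977) and Lce1e (0.963). Gfra1 and Aqp11, the members in which both deletion groups lay below control, correlated at 0.92, while Gfra1 and Xlr4b were at -0.37. All these values rest on 8 libraries in 3 groups, and genes picked for a group difference correlate through it.

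**Figure D4:**
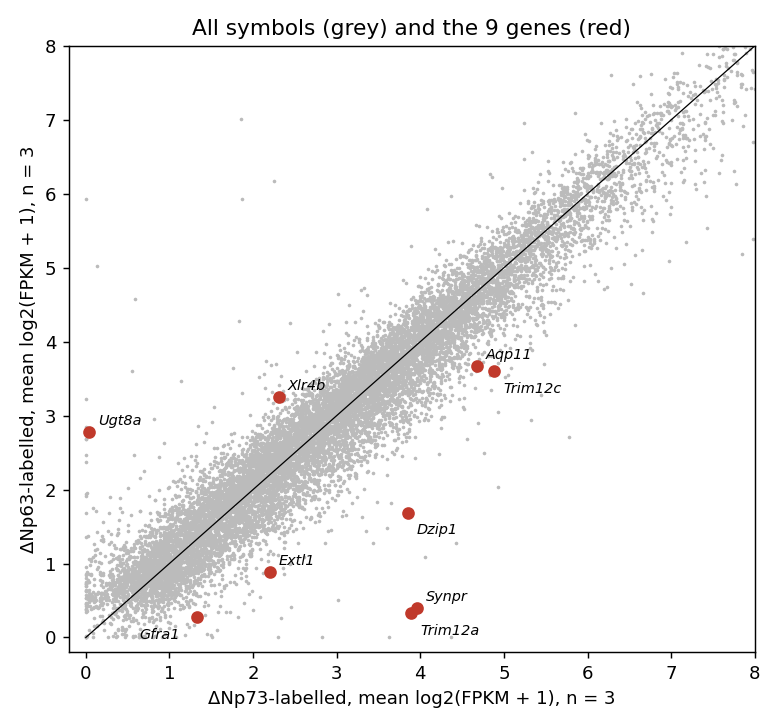
Mean log2(FPKM + 1) of the ΔNp63 group (y axis) against that of the ΔNp73 group (x axis) for all symbols in grey and the 9 genes in red, n = 3 a group, with the line of equal levels and both axes ending at 8. Ugt8a and Xlr4b lie above the line and the other 7 genes below it, with Trim12a and Synpr farthest below, at a difference of 3.56 each.

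Genes next to the members in the genome were looked at by position, 5 measured genes on either side, which gave 81 genes with 73 tested. Of these, 0 passed the test in any comparison, and the lowest adjusted p was 0.345 between the deletion groups, 0.158 for ΔNp63 against control and 0.0653 for ΔNp73 against control (limma, Benjamini-Hochberg). At an unadjusted p under 0.05 the counts were 22 (30.1%), 15 (20.5%) and 17 (23.3%) of 73, against 10.5%, 13% and 21.3% of all genes tested. Neighbours are few, share places in the genome and were not drawn at random, so these shares are descriptions. In 24 of the 73 (32.9%) the deletion groups did not overlap, against 18.9% of genes tested. In 8 of them (10.96%) the ΔNp63 libraries lay beyond the 5 others, against 4.88%. Of these 8, named after their values were seen, 4 were next to Synpr (Ptprg, 3830406C13Rik, Cadps and Il3ra). Cldn10 and Dnajc3 were next to Dzip1, Vma21 next to Xlr4b and Hbb-b1 near Trim12a and Trim12c. Beta-s, the haemoglobin entry beside Hbb-b1, overlapped between all groups. It was at 133 and 689 FPKM in control, 31.5 to 531 in the ΔNp63 group and 72.1 to 159 in the ΔNp73 group. Trim34b, which lies between Trim12a and Trim12c, was at 2.51 and 1.66 FPKM in control, at 7.05, 2.32 and 7.79 in the ΔNp63 group and at 3.53, 5.34 and 3.23 in the ΔNp73 group. It did not share the low ΔNp63 values of the genes on either side of it.

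**Figure D5:**
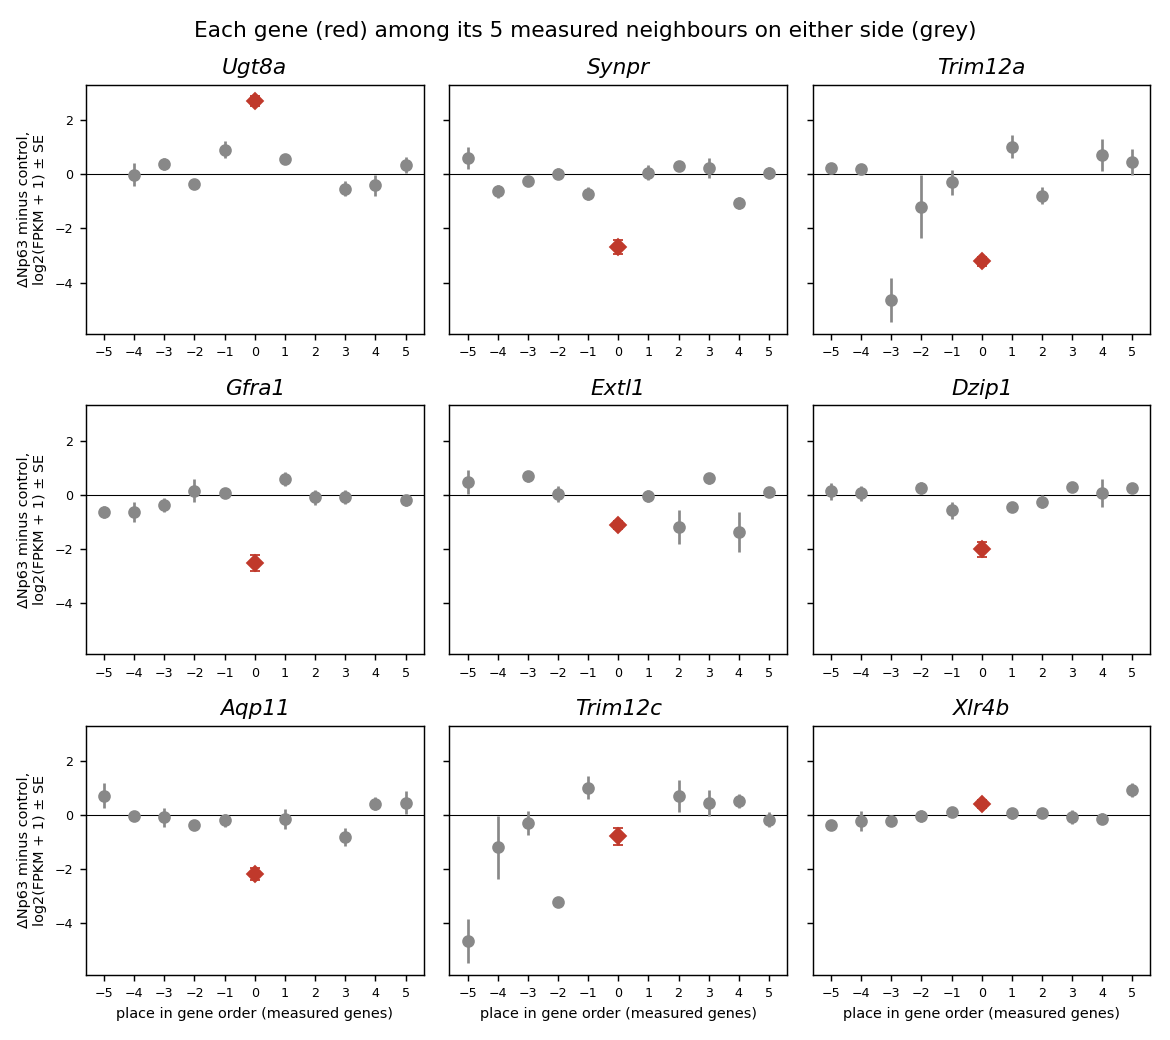
Difference between ΔNp63 and control in log2(FPKM + 1), with its standard error from limma, for each member (red diamond) and the 5 measured genes on either side (grey, where tested), by place in the gene order, 1 panel a member. The grey points at place 2 beside Trim12a and at place -2 beside Trim12c are these genes themselves. The lowest grey point, at -4.66, is the haemoglobin gene Hbb-b1, which did not pass the test. Beta-s, the haemoglobin entry beside it, lay at -1.19 (SE 1.15).

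The 8 pathway and family lists together held 64 tested genes other than the members, of which 0 passed the test in any of the 3 comparisons (limma). Of all genes tested, 0.0542% to 0.0929% did, so a count of 0 is not read as a result about the lists or the neighbours. At an unadjusted p under 0.05 (limma) the counts were 9 (14.1%), 7 (10.9%) and 16 (25%), against 10.5%, 13% and 21.3% of all genes tested. The order is ΔNp73 against ΔNp63, ΔNp63 against control and ΔNp73 against control. The medians of all genes tested were -0.02, -0.02 and -0.07 in that order. Without ΔNp63 replicate 2, the calls were 0 of 64 between the deletion groups, 15 of 64 (23.4%) for ΔNp63 against control, 11 higher and 4 lower, and 19 of 64 (29.7%) for ΔNp73 against control, 14 higher and 5 lower. Over all genes those shares were 0.149%, 22.5% and 33.0%. Aqp1, Aqp3, Psap, Syngr2, Trim30a, Ptch1 and Smo were among the genes called against control in both groups in that setting. Of the neighbours, 0 of 73, 21 of 73 (28.8%) and 29 of 73 (39.7%) were called in it.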

How the data were processed

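Tumour RNA was sequenced in 8 libraries of 3 groups (TRIZOL LS extraction and an Illumina TruSeq RNA kit, per the labels' protocols). The authors deposited 1 table of FPKM per RefSeq transcript, quantile-normalised between libraries, with 16589 rows under 13681 symbols. The submitters' processing notes name TopHat2 2.0, Cufflinks 2.0 and the build mm9, with no roles. Quantile normalisation equalises the libraries' distributions and hides any change in total RNA. The table holds no counts, so depth is unknown and no counting interval is given.

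For each symbol the row with the highest mean over the 8 libraries was used. Of the symbols, 2113 had more than 1 row, and 35 rows whose symbol had become a date were restored from the RefSeq identifier. Genes at 1 FPKM or more in at least 2 libraries (12921) were tested on log2(FPKM + 1), computed here from the deposited FPKM, with limma 3.58.1 in R 4.3.3. The model held all 8 libraries and group alone, with an intensity trend and 5 residual degrees of freedom, two-sided, and Benjamini-Hochberg adjustment over all genes tested with a threshold of 0.05. The script was tested on simulated data. Replicates were numbered in the order of the labels. Nothing says that they came from separate animals, so p-values measure the spread between these samples, which may be technical.

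The members and gene lists were chosen with earlier results of these data known. All members were named, together with any list gene or neighbour that passed the test, otherwise up to 4 genes of highest mean a list, and the 2 genes most alike to each member. Some genes that this rule names are not reported here. Promoter windows are from RefSeq (GRCm38.p6), which held all 9 genes, and motifs were searched on both strands. Because the files use mm9, the reference annotation served only for names and gene order. Alternatives were other pseudocounts and filters, array weights, fits of 2 groups, other transcript rows and leaving out libraries. A left-out fit with 1 control assumes that it varies like the other groups.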

Additional observations from a re-analysis of the deposited data

How the results depend on the processing

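Of 458 recomputed differences of members, 203 were identical by construction. A filter, the trend or a library of the group not compared does not enter them. Summing transcript rows also left 24 of 27 values identical, since only Trim12c has more than 1 row. Of the 255 that differed, 225 stayed within the spread between replicates, 29 moved and 1 reversed. The reversal was Trim12c in ΔNp63 against control, at 0.05 (0.0533) when both transcript rows were summed, and its difference between the deletion groups was then 0.36. Dzip1 in ΔNp73 against control, a difference near 0, changed sign without control replicate 1 (-0.30) and without the Y-linked libraries (-0.18). Smaller pseudocounts gave most of the moves, 15 of 27 values at 0.1 and 10 of 27 at 0.5, as the scale itself changes: at 0.1 the difference of ΔNp73 from ΔNp63 was -5.56 for Ugt8a, 5.30 for Trim12a, 5.28 for Synpr and 2.42 for Gfra1. Counts of genes called over the whole table were unstable. Between the deletion groups the count of 7 became 344 with array weights and 3 without the libraries with Y-linked RNA, an alternative chosen after seeing the data, and ranged from 6 to 19 when 1 library was left out, 19 being without ΔNp63 replicate 2. For ΔNp63 against control 12 became 4480 with array weights, 5 in a fit of those groups alone and 1 without the Y-linked libraries. Leaving out 1 library gave 3 to 2882, with 3 without either control, 7 without ΔNp63 replicate 1 or ΔNp73 replicate 2, and 2882 without ΔNp63 replicate 2. For ΔNp73 against control 7 became 18 and 11 at pseudocounts of 0.1 and 0.5, 2 with a filter of 3 libraries, 6569 with array weights and 3890 in a fit of those groups alone. Without the Y-linked libraries it was 0 (limma, 623 at an unadjusted p under 0.05). Leaving out 1 library gave 0 to 4212: 0 without control replicate 1 or 2 (1066 and 1254 at an unadjusted p under 0.05), 13 and 2 without ΔNp63 replicates 1 and 3, 1, 1 and 2 without the ΔNp73 replicates, and 4212 without ΔNp63 replicate 2. On-off genes numbered 6 with a high level of 5 FPKM, 5 with a low level of 0.5 FPKM and 12 to 23 with 1 deletion library left out, which asks less of a gene. The cause of the other moves was not tested. No paired analysis was possible because the labels give no replicate numbers or pairs. With depth unknown, differences between values near 0 FPKM cannot be judged.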

Other observations

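The on-off definition held for 8 symbols other than the members, 4 in each direction, among 11 in all (0.0804%). On in the ΔNp63 group were H2-T10 and H2-T3, both of the nonclassical MHC class I genes. H2-T10 was at 33.5, 22.5 and 41.1 FPKM there, at 0.469 and 0.126 in control, and at 0.133, 0.154 and 8e-07 in the ΔNp73 group. H2-T3 was at 14.8, 5.33 and 16.9 FPKM in the ΔNp63 group, at 5.03 and 0.334 in control and at 0.262, 0.409 and 0.752 in the ΔNp73 group. Control replicate 1 came close to the lowest ΔNp63 library in H2-T3, and no control did in H2-T10. Cnfn, which encodes cornifelin of the outer skin, was at 7.41, 2.30 and 2.84 FPKM in the ΔNp63 group, 1.87 and 1.05 in control and 0.506 to 0.723 in the ΔNp73 group. The small RNA gene Snora65 was at 261, 214 and 424 FPKM in the ΔNp63 group and listed at 0 in the other 5 libraries. Short transcripts are poorly measured in such libraries.

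On in the ΔNp73 group were Rab6b, Pira11, Serpina1a and Zfp672. Rab6b, a Golgi trafficking protein best known from neurons, was at 2.54, 4.55 and 7.36 FPKM there, at 5.45 and 5.73 in control and at 0.224, 0.364 and 0.403 in the ΔNp63 group, so control overlapped with ΔNp73 and the ΔNp63 libraries were below both. Pira11, a paired receptor of myeloid cells, was at 2.95, 3.47 and 2.03 FPKM in the ΔNp73 group, at 2.16e-07 and 0.826 in control and at 0.519 to 0.995 in the ΔNp63 group. The summed macrophage markers also reached their highest values in the ΔNp73 group, at 561 to 778 FPKM against 222 to 576 elsewhere, with overlap. Their part in the Pira11 values was not tested. Serpina1a, which encodes a protease inhibitor made mainly in liver, was at 2.03, 2.30 and 2.57 FPKM in the ΔNp73 group and below that in all others, with 0.792 and 1.26 in control. Zfp672, a zinc finger gene measured here as a noncoding transcript, was at 2.98, 2.37 and 2.54 FPKM in the ΔNp73 group, 2.96 and 1.93 in control and 0.516 to 0.926 in the ΔNp63 group.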
